A study of Mus musculus with 6 samples.

Results

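The Runx factors Runx1, Runx2 and Runx3, their partner Cbfb, and the T-box factors Tbx21 (T-bet) and Eomes were followed in bulk RNA-Seq counts of mouse Tregs with and without Zfp335. These 6 genes were chosen by symbol from the 13709 rows of the count table, with their difference between genotypes already known, so that difference is given as a description with no test. CD4+YFP+CD25+ Tregs had been sorted from 3 WT samples (Foxp3Cre) and 3 KO samples (Foxp3Cre Zfp335fl/fl) of C57BL/6 mice that were 2 weeks old per the study's methods. In both genotypes a YFP-Cre fusion was made from the Foxp3 locus, so WT cells carried Cre as well, and in KO cells it deleted the floxed Zfp335 gene. The study reports that KO mice develop early, lethal autoimmune inflammation. In heterozygous females without it, the study found most Treg and helper T cell signature genes about equal between genotypes. Loss of Zfp335 and effects of inflammation cannot be told apart in the samples used here. The labels named both lymph nodes and spleen as the source of the cells. Whether a sample came from 1 mouse or several was not stated, so the spread between samples may be technical.

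Runx proteins are transcription factors that bind DNA through the Runt domain, and Cbfb binds no DNA itself but raises the affinity and stability of its Runx partner. In T cells, Runx3 silences Cd4 in the CD8 lineage and, with T-bet, promotes Ifng and restrains Il4 in Th1 cells. Runx1 with Cbfb supports Foxp3 expression in Tregs. Runx2 is best known as the master factor of bone formation. T-bet directs the Th1 program, and Eomes, its close relative, is best known in CD8 and NK cells, where both drive cytotoxic genes.

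Libraries held 32032631 to 40728419 counts each. Expression is given as CPM, the usual count scaled to library size, here after TMM scaling, as mean ± SD over 3 samples per genotype. At these depths 3 counts, taken as the limit of detection, were 0.0747 to 0.0913 CPM, and this floor covers counting error only. Zfp335 itself was at 101, 94.3 and 103 CPM in WT and at 37.0, 37.9 and 40.2 CPM in KO samples 1 to 3. Of its exonic length, 23.3% overlaps Pcif1 on the other strand. The use of strand is not known, so these values may include Pcif1 reads. The third WT sample stood apart from the other WT samples on the second principal component, which held 18.4% of the variance, so values without it are given for Runx3 and Eomes and for list genes given with a log2FC whose call changed or whose fold moved by more than 1.5 times. The Treg markers Foxp3, Il2ra, Ctla4, Ikzf2 and Tnfrsf18 were all expressed, with a summed level of 3025 to 4324 CPM in WT and 2420 to 2456 CPM in KO samples.

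Differences between genotypes are given as log2FC, the log2 fold difference of KO over WT fitted by edgeR, with its SE. Calls needed a fold over 1.5 with p under 0.05 and a Benjamini-Hochberg adjusted p under 0.1 in edgeR's quasi-likelihood test. Among the 13594 genes tested, 24.4% were called, 11.9% higher and 12.5% lower in KO samples. All 6 factors passed the filter on low counts. Of these, 4 of 6 met the cutoffs, all higher in KO samples: Runx2, Runx3, Tbx21 and Eomes. The WT and KO ranges did not overlap for 6 of 6, against 53.8% of all genes tested. Because the genes were chosen on this contrast, nothing is read from these shares. In bulk RNA, a larger number of cells that express a gene and more RNA per cell cannot be told apart.

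**Figure D1:**
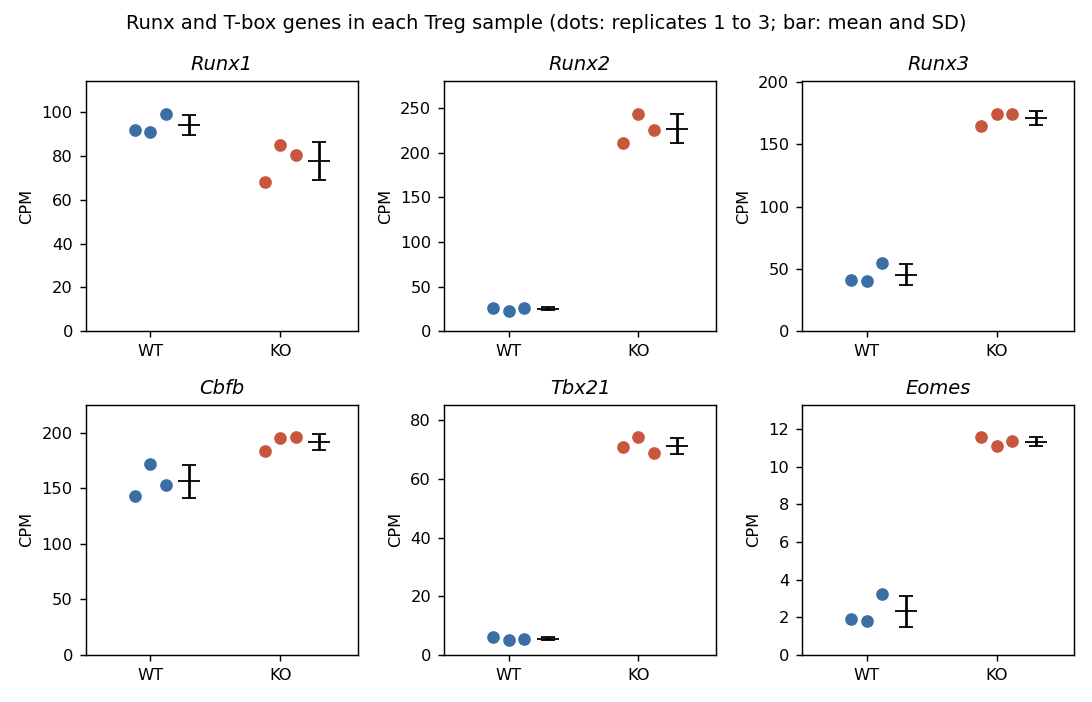
CPM of each of the 6 genes (y axis, linear from 0) in WT and KO samples (x axis), with replicates 1 to 3 from left to right as dots and the mean with its SD beside them. Runx2, Runx3, Tbx21 and Eomes are far higher in every KO sample, while Runx1 is lower and Cbfb higher by a small margin.

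Runx1 lies on the minus strand at chr16:92601466-92826149 (mm10). It was at 91.8, 90.7 and 99.2 CPM in WT and at 67.9, 85.0 and 80.2 CPM in KO samples. The KO values were all under the WT values, with a narrow gap between the second KO and the second WT sample. The mean went from 93.9 ± 4.63 to 77.7 ± 8.83 CPM, which is 82.7% of WT, and the log2FC was -0.27 (SE 0.10). Runx1 was the only one of the 6 genes with a lower mean in KO samples, and its difference was under the fold cutoff.

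Runx2 lies on the minus strand at chr17:44495987-44814797. It was at 26.5, 23.2 and 25.5 CPM in WT and at 211, 244 and 226 CPM in KO samples. The 3 WT samples were close together, and the lowest KO sample was far above all of them. The mean went from 25.1 ± 1.70 to 227 ± 16.3 CPM, a 9.05-fold difference (log2FC 3.18, SE 0.09), and 181 of the genes tested had a larger log2 fold change. Runx2 was thus the least abundant Runx gene in WT and the most abundant in KO samples by CPM, a scale that does not account for transcript length.

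Runx3 lies on the plus strand at chr4:135120652-135177990. It was at 40.99, 40.4 and 54.8 CPM in WT and at 164, 174 and 174 CPM in KO samples. The third WT sample was the highest of its group and still well below the KO samples. The mean went from 45.4 ± 8.17 to 171 ± 5.84 CPM, a 3.77-fold difference (log2FC 1.91, SE 0.12). Without the third WT sample the log2FC of Runx3 was 2.07.

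Cbfb lies on the plus strand at chr8:105170674-105217989. It was at 144, 172 and 153 CPM in WT and at 184, 196 and 196 CPM in KO samples. The groups did not overlap, but the lowest KO sample was only 1.06 times the highest WT sample. The mean went from 156 ± 14.7 to 192 ± 7.07 CPM, a 1.23-fold difference (log2FC 0.29, SE 0.08), under the fold cutoff.

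Tbx21 lies on the minus strand at chr11:97098071-97115331. It was at 6.00, 4.99 and 5.53 CPM in WT and at 70.8, 74.2 and 68.8 CPM in KO samples. The 6 values formed 2 tight groups with a wide gap. The mean went from 5.51 ± 0.51 to 71.3 ± 2.73 CPM, a 12.9-fold difference and the largest fold of the 6 genes (log2FC 3.69, SE 0.10). It rested on 164 to 221 reads in WT and 2425 to 2981 reads in KO samples, and 131 of the genes tested had a larger log2 fold change.

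Eomes lies on the plus strand at chr9:118478212-118486132. It was at 1.90, 1.80 and 3.24 CPM in WT and at 11.6, 11.1 and 11.3 CPM in KO samples. The third WT sample was again the highest of its group, and no WT sample reached the KO range. The mean went from 2.31 ± 0.81 to 11.3 ± 0.24 CPM, a 4.89-fold difference (log2FC 2.29, SE 0.25, and 2.61 without the third WT sample). Eomes had the fewest reads of the 6 genes, 59 to 108 in WT and 400 to 445 in KO samples.

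**Figure D2:**
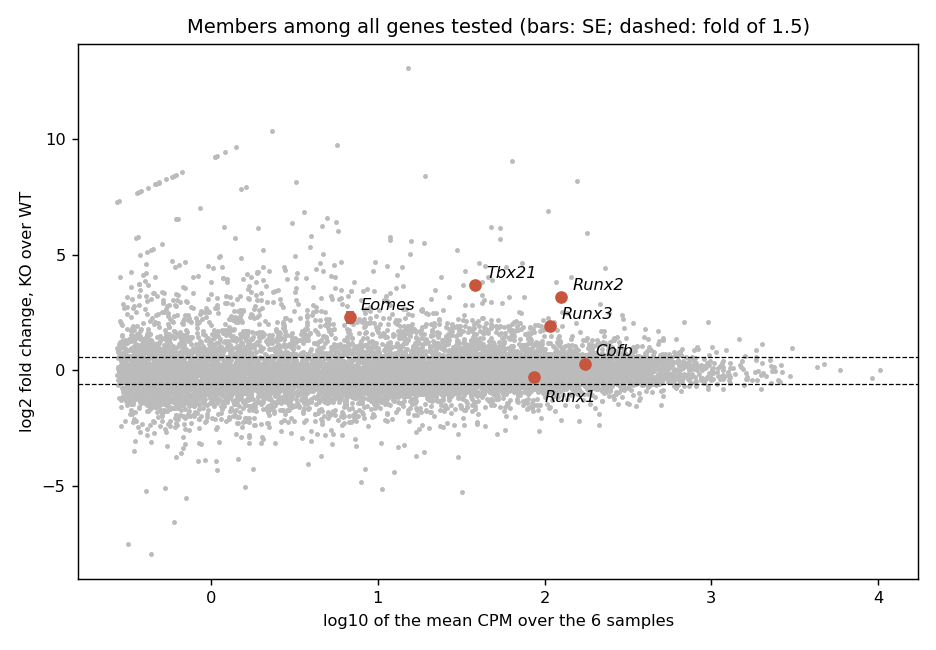
Log2 fold change of KO over WT (y axis) against log10 of the mean CPM over the 6 samples (x axis) for all 13594 genes tested (grey), with the 6 genes in red, their SE as bars and the fold of 1.5 as dashed lines. Tbx21, Runx2, Eomes and Runx3 lie above the upper line, at 3.69, 3.18, 2.29 and 1.91, and Runx1 and Cbfb lie between the lines.

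Levels of different genes were compared per kilobase of exon (GENCODE M21, union of all exons). In WT samples the order was Cbfb at 44.9 ± 4.23, Runx3 at 9.07 ± 1.63, Runx1 at 7.81 ± 0.39, Runx2 at 2.84 ± 0.19, Tbx21 at 2.21 ± 0.20 and Eomes at 0.557 ± 0.194 CPM per kb. The WT ranges of Runx3 and Runx1 overlapped, and their order turned when the longest transcript was used as the length (Runx1 16.0, Runx3 11.7 CPM per kb). In KO samples the order was Cbfb at 55.1 ± 2.03, Runx3 at 34.2 ± 1.17, Tbx21 at 28.6 ± 1.10, Runx2 at 25.7 ± 1.84, Runx1 at 6.46 ± 0.73 and Eomes at 2.73 ± 0.06 CPM per kb. Tbx21 and Runx2 were near each other in KO samples, and their order also turned with the longest transcript (Runx2 35.1, Tbx21 28.6 CPM per kb). Among 13260 genes with a length, Tbx21 went from percentile 32.5 of level per kb in WT to 86.4 in KO samples, and Runx2 from 36.2 to 84.5. Runx3 went from 60.6 to 89.2 and Eomes from 19.5 to percentile 36.2. Eomes therefore stayed in the lower part of the expressed genes in both genotypes, while Cbfb was at 92.7 and percentile 93.8.

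The makeup of the Runx family differed between genotypes. Runx1 made up 40.6%, 41.4% and 37.3% of the sum of the 3 Runx genes per kb in WT and 9.05%, 10.2% and 9.94% in KO samples. Runx2 made up 15.9%, 14.4% and 13.1% in WT and 38.3%, 39.7% and 38.1% in KO samples. Runx3 made up 43.5%, 44.2% and 49.6% in WT and 52.6%, 50.1% and 52.0% in KO samples. The Runx1 and Runx2 shares were thus far apart between genotypes, and the Runx3 shares were close, with no overlap between the groups. With the longest transcript as the length, the mean share of Runx1 was 50.9% in WT and 14.3% in KO samples, so Runx1 rather than Runx3 was the largest part in WT samples.

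The sum of the Runx genes was 19.7 ± 2.08 CPM per kb in WT and 66.3 ± 3.61 CPM per kb in KO samples, a 3.36-fold difference. Cbfb, which all 3 Runx proteins share as a partner, was 2.19, 2.72 and 1.99 times the Runx sum in WT and 0.845, 0.809 and 0.840 times it in KO samples. Cbfb mRNA was above the Runx sum in every WT sample and below it in every KO sample, also with the longest transcript as the length (means of 1.72 and 0.718). These are mRNA levels, and the proteins were not measured here. Among the T-box factors, Tbx21 per kb was 5.27, 4.64 and 2.85 times Eomes in WT and 10.2, 11.2 and 10.1 times Eomes in KO samples.

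**Figure D3:**
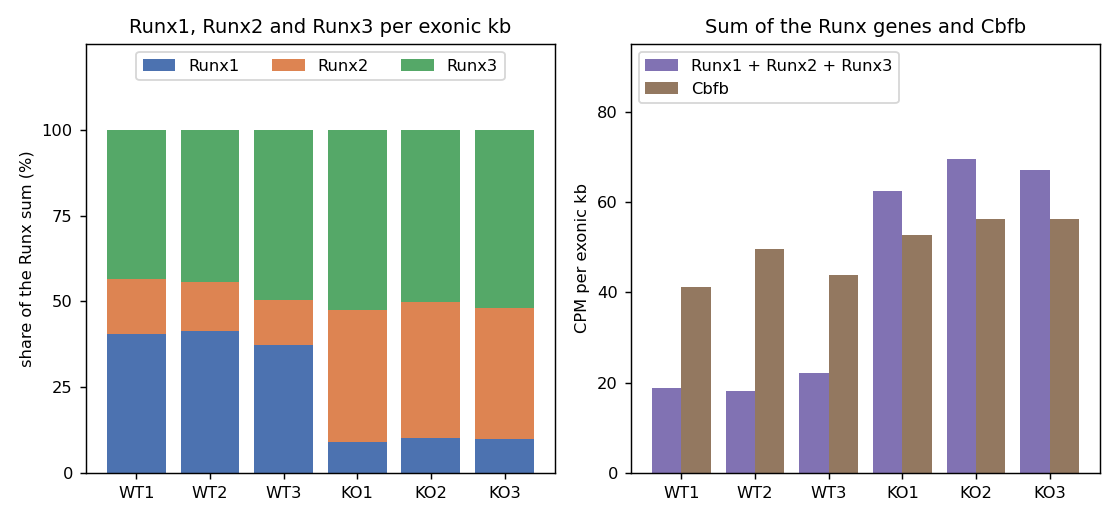
Left, the share (%) of Runx1, Runx2 and Runx3 in their summed CPM per exonic kb in each sample. Right, that sum beside Cbfb in CPM per exonic kb, where Cbfb is the taller bar in the 3 WT samples and the shorter one in the 3 KO samples.

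The sequence before and around the start sites of the 6 genes was read from RefSeq (GRCm38.p6, the assembly mm10 denotes), in windows from 250 bases before to 50 bases after each start site. All 6 genes matched, with 8 start sites in all. The Runx motif TGTGGT was searched on both strands and occurred in 16.8% of 32851 such windows. The upstream start sites of Runx1 and Runx3 and the start site of Runx2 each held 2 copies side by side, read on the other strand as ACCACA. They are shown because the 3 family members share them, and capitals mark the copies in sequences printed 5′ to 3′ on the strand of the gene.
Runx1 chr16:92826027-92826052 (minus): taaacaACCACAgaACCACAagttgg
Runx2 chr17:44814585-44814610 (minus): caaacaACCACAgaACCACAagtgcg
Runx3 chr4:135120505-135120530 (plus): ccctcaACCACAgaACCACAaggcca
The paired form was searched after the windows had been seen, as TGTGGT, then T, then any base, then TGTGGT and T, on both strands. It occurred in 5 windows (0.0152%). They were those of Runx1, Runx2 and Runx3, of Gm16225, whose window overlaps that of Runx3 on the other strand, and of Olfr24. The pair began 28 bases after the start site in Runx1, 23 bases after it in Runx2 and 135 bases before it in Runx3. Runx2 held 1 further TGTGGT and 1 copy of the form TGCGGT, which occurred in 6.45% of windows. The downstream start sites of Runx1 and Runx3 and the windows of Cbfb, Tbx21 and Eomes held neither form. The T-box motif GGTGTG occurred in 19.0% of windows and in none of those of the 6 genes. A match of letters is not a bound site, and counts per gene do not tell which start site was used.

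**Figure D4:**
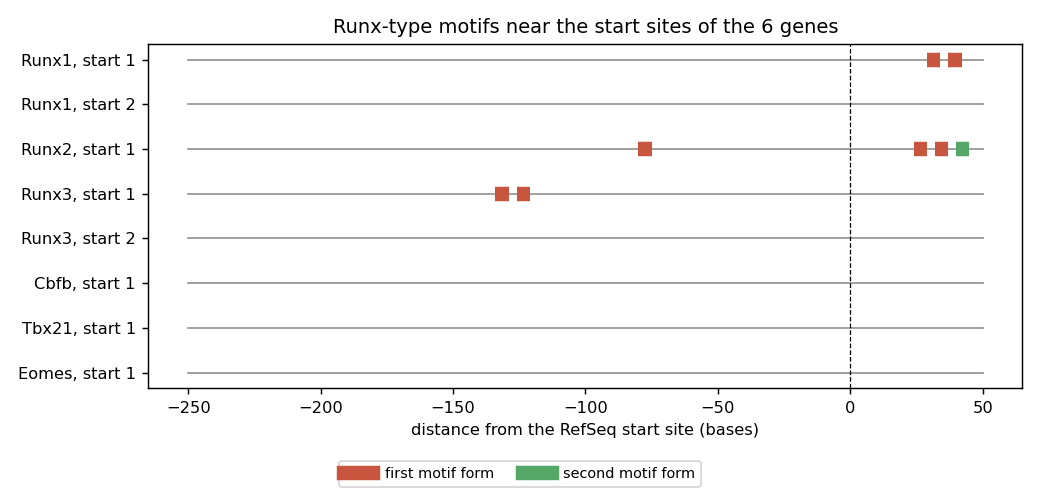
Runx motifs (red: the form TGTGGT; green: the form TGCGGT) by distance in bases from each RefSeq start site (x axis) of the 6 genes (rows, upstream start site first where a gene has more than 1). Paired red marks appear at the first start sites of Runx1, Runx2 and Runx3 and nowhere else.

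The genes of 7 lists were counted over the same fit. The lists were drawn up around the factors from general knowledge, but with earlier results of these data known. Their counts and medians are therefore descriptions. Over all genes tested, 24.4% were called, 11.9% higher and 12.5% lower in KO samples, and the median log2 fold change was -0.04. Of 19 Runx cofactors and co-repressors, 1 rose and 1 fell, and the median log2 fold change was 0.01. The most abundant ones were not called, namely Ets1, which binds DNA together with Runx1, the co-repressor Ncor1, and Tle5 and Tle3 of the Groucho family. Ets1 was at 1669 ± 114 CPM in WT against 1553 ± 4.82 CPM in KO samples. Cbfa2t3, a co-repressor of the ETO family, rose from 1.41 ± 0.83 to 24.6 ± 4.47 CPM (log2FC 4.12, SE 0.43, adjusted p = 0.00038 by edgeR). Tle1, a Groucho co-repressor, fell from 5.55 ± 3.07 to 1.99 ± 0.68 CPM (log2FC -1.48, SE 0.45, adjusted p = 0.033 by edgeR), and without the first KO sample its adjusted p was 0.110.

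Of 20 tested genes known to be bound or regulated by Runx proteins in T cells, 7 rose and 3 fell, with a median of -0.09. Without the third WT sample 11 rose and 2 fell. Cd4, which Runx proteins silence in CD8 cells, was at 659 ± 19.97 CPM in WT against 788 ± 24.7 CPM in KO samples and was not called (log2FC 0.26). Ifng rose from 3.65 ± 0.95 to 84.0 ± 1.04 CPM (log2FC 4.52, SE 0.18, adjusted p = 7.1e-06 by edgeR). Il4, a Th2 cytokine gene with a Runx-bound silencer, rose from 0.338 ± 0.069 to 8.65 ± 0.95 CPM (log2FC 4.66, SE 0.26, adjusted p = 2.5e-05 by edgeR). Itgae, which encodes the integrin CD103, was at 113, 110 and 308 CPM in WT and at 52.4, 49.6 and 56.7 CPM in KO samples, and it fell (log2FC -1.74, and -1.08 without the third WT sample). Foxp3 was at 738, 642 and 1189.7 CPM in WT and at 460, 472 and 463 CPM in KO samples. The log2FC was -0.88 (adjusted p = 0.012 by edgeR), and without the third WT sample it was -0.57, under the fold cutoff. Foxp3 exons overlap Ppp1r3f and Ccdc22 on the other strand. Il2ra and Ctla4 were not called.

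Of 20 genes of the signals upstream of T-bet and Eomes, 10 rose and 3 fell, with a median of 0.58. The receptor for IL-12, a cytokine that acts through Stat4, had the largest rise: Il12rb2 was at 0.244, 0.304 and 3.30 CPM in WT and at 94.4, 94.9 and 92.6 CPM in KO samples. The log2FC of Il12rb2 was 6.21 (SE 0.71, adjusted p = 0.00055 by edgeR), or 8.41 without the third WT sample, and 40.0% of its exonic length overlaps Serbp1 on the other strand. Il18rap, a subunit of the IL-18 receptor, rose from 41.2 ± 2.26 to 230 ± 8.26 CPM (log2FC 2.49, SE 0.07, adjusted p = 1.7e-06 by edgeR). Stat4 and Ifngr1 also rose, with log2FC values of 1.17 and 1.23. Il2rb, a receptor subunit for IL-2 and IL-15, was just past the cutoff at a log2FC of 0.59, and this call was lost without the first or the second WT sample (0.49 and 0.45), without the second KO sample (0.58) and with library totals alone (0.56). Foxo3 and Tcf7, a Foxo factor and the T cell factor TCF-1, fell, with log2FC values of -0.70 and -0.69.

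Of 22 tested genes of the Th1 program tied to T-bet, 16 rose and 2 fell, with a median of 1.61. Bhlhe40, a transcription factor of cytokine-producing T cells, rose from 131 ± 52.8 to 542 ± 14.2 CPM (log2FC 2.05, SE 0.25, adjusted p = 0.00065 by edgeR). Il18r1 rose from 110 ± 25.1 to 274 ± 18.5 CPM (log2FC 1.31, SE 0.15, adjusted p = 0.00056 by edgeR). The chemokine gene Ccl3 had 1 to 3 counts per WT sample and 228 to 337 counts per KO sample, so no fold is given. Klrg1, an inhibitory receptor of terminally differentiated effector cells, fell from 29.8 ± 3.28 to 15.3 ± 0.71 CPM (log2FC -0.96, SE 0.11, adjusted p = 0.00054 by edgeR). Xcl1 was called lower at an edgeR adjusted p of 0.0998, a call lost in 8 of the 12 refits, whose adjusted p lay between 0.102 and 0.248. The list shares 6 genes with the upstream list (Hlx, Il12rb2, Il18r1, Il18rap, Il2rb and Stat4) and 5 with the cytotoxic list (Ccl5, Fasl, Il2rb, Klrg1 and Nkg7), so the counts are not independent.

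Of 20 tested genes of the cytotoxic program tied to Eomes and T-bet, 13 rose and 3 fell, with a median of 1.62. Gzmb, which encodes granzyme B, was at 12.1, 12.2 and 36.8 CPM in WT and at 437, 446 and 438 CPM in KO samples. The log2FC was 4.44 (SE 0.45, adjusted p = 0.00032 by edgeR), and Gzmb was at 5.18 without the third WT sample. Nkg7, a granule protein gene, rose from 21.6 ± 3.73 to 122 ± 2.48 CPM (log2FC 2.50, SE 0.13, adjusted p = 1.8e-05 by edgeR). Klrc1, which encodes an NKG2 receptor, had 3 to 4 counts per WT sample and 1290 to 1683 counts per KO sample, and the granzyme gene Gzmk had 0, 5 and 0 counts in WT and 133 to 157 in KO samples. Ctsw, which encodes cathepsin W of cytotoxic cells, fell from 140 ± 24.0 to 70.6 ± 3.82 CPM (log2FC -0.99, SE 0.13, adjusted p = 0.00084 by edgeR). Klrc1 and the granzyme genes have close relatives, and keeping 1 alignment for each read could have split their reads. Perforin (Prf1) rose, with a log2FC of 2.83.

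Of 24 other lineage factors of T cells, 4 rose and 5 fell, with a median of -0.10. Zeb2, a factor of terminal effector cells, rose from 2.35 ± 0.60 to 19.5 ± 0.57 CPM (log2FC 3.04, SE 0.19, adjusted p = 4.2e-05 by edgeR). The opposing factors Id2 and Id3 moved in opposite directions: Id2, an inhibitor of E proteins in effector cells, rose from 37.8 ± 14.6 to 215 ± 7.71 CPM, and Id3, its relative in naive and memory cells, fell from 73.4 ± 18.4 to 13.9 ± 1.43 CPM (log2FC 2.51 and -2.40, adjusted p = 0.00025 and 0.00013 by edgeR). Bcl6, the factor of follicular helper T cells, fell from 37.2 ± 13.1 to 13.1 ± 1.02 CPM (log2FC -1.51, SE 0.26, adjusted p = 0.0029 by edgeR). Satb1, a chromatin organizer, rose from 293 ± 70.7 to 728 ± 19.7 CPM (log2FC 1.31, adjusted p = 0.00060 by edgeR). Bcl11b, the T cell identity factor, was not called.

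Only 5 of 15 other T-box genes were in the table, and none rose. Tbx6 fell from 12.3 ± 3.55 to 4.09 ± 0.85 CPM (log2FC -1.59, SE 0.26, adjusted p = 0.0025 by edgeR). Tbx2 was called lower at 2.07 ± 0.64 against 1.07 ± 0.15 CPM, a call lost when any single sample other than the second WT sample was left out and with a replicate block. Mga, the most abundant of them at 154 ± 15.5 CPM in WT against 127 ± 5.67 CPM in KO samples, was not called, and neither were Tbr1 and Tbx18. Tbx21 and Eomes were thus the T-box genes of the table that were higher in KO samples.

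**Figure D5:**
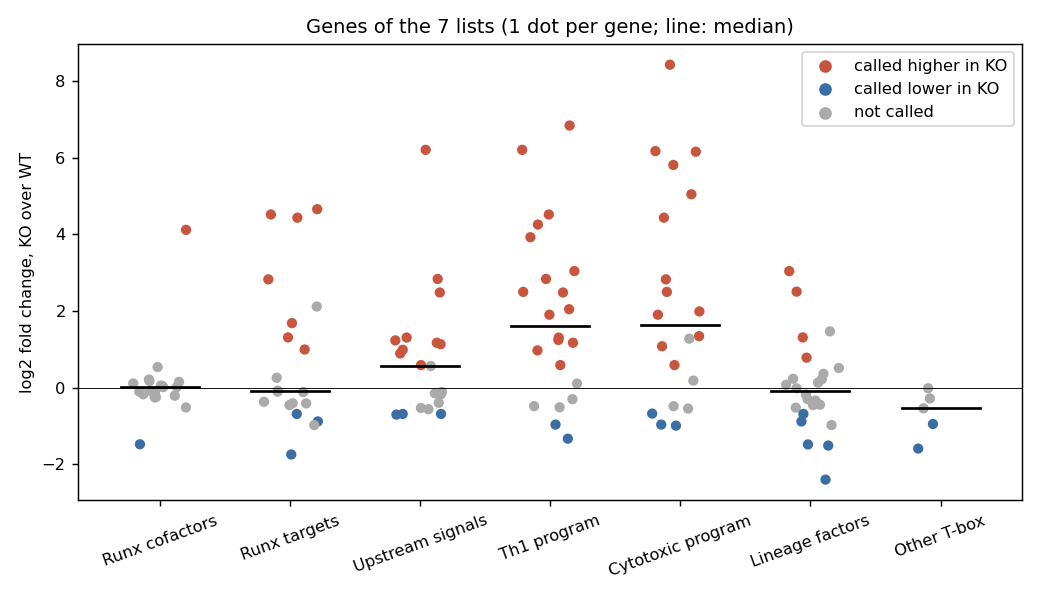
Log2 fold change of KO over WT (y axis) for each tested gene of the 7 lists (x axis), in red where called higher, blue where called lower and grey where not called, with the list's median as a black line. The medians of the Th1 and cytotoxic lists are at 1.61 and 1.62, and those of the cofactor, target and lineage lists are near 0. The lists were drawn up with earlier results of these data known.

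The genes with the most similar profile to each factor were found by the Euclidean distance of centred log2 CPM over the 6 samples, among 9881 genes with at least 5 CPM on average. This is a description, since all points share the same 6 libraries. Closest to Runx1 were Rnf24, Midn and Ulk2, at distances of 0.091, 0.110 and 0.118, and closest to Cbfb were Tmem41b, Myl12a and Tbcb, at 0.069 to 0.076. Myl12a overlaps its close relative Myl12b and is uncertain. On the other strand, Pank2 overlaps 16.5% of the exonic length of Rnf24, and Polr2i overlaps 22.5% of that of Tbcb. Since the use of strand is not known, Rnf24 and Tbcb are uncertain too. Closest to Runx2 were Cd163l1 at 0.222, Slamf7 at 0.256 and Trim36 at 0.303. Slamf7, a SLAM family receptor of cytotoxic cells, was at 4.31 ± 0.35 CPM in WT against 37.3 ± 2.25 CPM in KO samples. Closest to Runx3 were Rnf125, Gna15 and Mcoln2, at 0.176, 0.187 and 0.254. Closest to Tbx21 were Trim36 at 0.388, Lgals3 at 0.449 and Tbkbp1 at 0.513, and closest to Eomes were Gjb2 at 0.116, Gbp2 at 0.212 and Hid1 at 0.261. Lgals3, which encodes galectin-3, was at 16.7 ± 1.80 CPM in WT against 273 ± 7.36 CPM in KO samples. Gbp2, an interferon-induced GTPase gene, was at 93.4 ± 32.04 CPM in WT against 487 ± 16.0 CPM in KO samples.

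Markers of other cell types that express T-bet, Eomes or Runx genes were measured beside these values. NK markers, of which 2 of 6 were in the table, summed to 1.71 to 2.58 CPM in WT and 3.39 to 5.05 CPM in KO samples, with Ncr1, which defines NK cells, at 0.384 CPM and 0.940 CPM on average. Cd8a and Cd8b1 together were at 9.32 to 13.2 CPM in WT and 12.02 to 12.7 CPM in KO samples, so the groups overlapped, although Cd8a alone was called higher, at 1.86 against 3.71 CPM. That call was lost without the first or the third KO sample or the second WT sample, with adjusted p of 0.182, 0.182 and 0.108 by edgeR. Markers of gamma-delta T cells, 5 of 7 in the table, summed to 7.28 to 13.8 CPM in WT and 25.8 to 31.0 CPM in KO samples, and 3 of the 5 rose: Cd163l1 (Scart1) and the near-identical Trgc1 and Trgc2. Sox13 and Blk were not called. Sox13 overlapped between the groups, and Blk was lower in KO samples (1.39 against 0.836 CPM) with no overlap. Myeloid markers, 6 of 8 in the table, summed to 8.50 to 19.6 CPM in WT and 42.3 to 49.1 CPM in KO samples, and all 6 rose, with S100a8 and S100a9 at 0 in every WT sample. In single-cell RNA-Seq of Tregs from younger mice, the study also reported high S100a8 and S100a9 in a Treg cluster it named dysfunctional. B cell markers summed to 18.4 to 21.1 CPM in WT and 12.9 to 14.2 CPM in KO samples. Erythroid markers summed to 15.5 to 63.2 CPM in WT and 27.3 to 30.0 CPM in KO samples, and T cell markers to 2344 to 2827 CPM and 2311 to 2420 CPM. Within the T cell sum, Cd3d (called lower), Cd3e and Cd3g (not called) had WT means of 283, 463 and 431 CPM. Their KO means were 188, 338 and 308 CPM, with no overlap between the groups. Cd4 went the other way, from 659 to 788 CPM, and Lck overlapped between the groups. The part of other cell types in the difference of the 6 factors was not tested.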

How the data were processed

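RNA-Seq was done on Tregs of 3 WT and 3 KO samples, grouped by GEO's labels. Per the study's methods and the submitters' processing notes, reads were filtered with SOAPnuke, aligned with HISAT2 (mm10, 1 alignment kept for each read) and quantified with StringTie. The authors deposited 1 table of whole-number counts per gene, without normalization. How whole numbers were obtained, the annotation and the use of strand are not given in the sources used here, so antisense genes (Runx2os1 overlaps 5.87% of Runx2 exonic length) cannot be separated. No 50-base word was shared between transcripts of any pair of the 6 genes. Words of 25 bases were shared only among the Runx genes: 16 between Runx1 and Runx3, 4 between Runx2 and Runx3, and 2 between Runx1 and Runx2.

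Counts were tested with edgeR 4.0.16 in R 4.3.3 (filterByExpr at a minimum count of 10, TMM, glmQLFit and glmQLFTest, two-sided, Benjamini-Hochberg over all genes tested) with no covariate. Calls needed a fold above 1.5, p under 0.05 and adjusted p under 0.1. CPM are TMM-scaled. Lengths came from GENCODE M21. The procedure was also run on simulated counts with the same spread between samples in both genotypes. In these data the spread was larger in WT than in KO samples (biological coefficient of variation 0.263 and 0.070). That run therefore does not test the calls made here. The 6 genes were fitted with all others, but no p is given for them or for lists, since the members and lists were chosen with earlier results of these data known. Named genes were the 6 factors, Zfp335, up to 4 of the most abundant genes of each list and its 2 largest called rises and falls at a mean of at least 1 CPM, the 3 closest profiles per factor, and markers, except 1 list gene not reported here. Stat4, Ifngr1, Prf1, Tbx18, Serbp1 and the genomic neighbors were chosen after their values were seen. Alternatives were DESeq2 1.42.0, other size factors and filters, a replicate block, other cutoffs, each sample left out, and the longest transcript as length.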

Additional observations from a re-analysis of the deposited data

How the results depend on the processing

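The log2 fold changes of the 6 factors kept their direction and their side of the fold cutoff in 72 of 72 refits, over 12 alternatives. Leaving out 1 sample at a time gave -0.34 to -0.18 for Runx1, 3.12 to 3.23 for Runx2, 1.83 to 2.07 for Runx3, 0.24 to 0.37 for Cbfb, 3.62 to 3.76 for Tbx21 and 2.14 to 2.61 for Eomes. All genes called numbered 3318, and 2867 to 3667 when 1 sample was left out, 5244 without a fold cutoff at an adjusted p limit of 0.05, and 1686 with glmTreat against a fold of 1.5. With the replicate number as a block, 3190 genes were called, and the T-box list had 1 call in place of 2. Deviations of same-numbered WT and KO samples from their group means correlated at 0.038, 0.040 and -0.012. These values do not tell whether the replicate numbers pair the samples, since a weak effect of pairing could go unseen.

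With that limit and no fold cutoff, the Runx cofactor list had 4 calls in place of 2 and the lineage list 14 in place of 9. With glmTreat the cofactor list had 1, the T-box list 1 and the upstream list 7 in place of 13. Leaving out 1 sample gave 1 to 3 calls in the cofactor list and 1 to 2 in the T-box list, and the total calls of the other lists stayed within 1.5 times. By direction, the Runx target list had 11 rises in place of 7 and 2 falls in place of 3 without the third WT sample. The lineage list had 6 rises in place of 4 without it. Without any 1 of the other samples the Th1 list had 13 to 14 rises in place of 16 and 1 fall in place of 2. In these same refits the cytotoxic list had 10 to 12 rises in place of 13 and 2 falls in place of 3.

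Levels per kb depend on the length used. With the longest transcript, WT and KO means were 16.0 and 13.3 CPM per kb for Runx1, 3.88 and 35.1 for Runx2, 11.7 and 44.0 for Runx3, 54.1 and 66.3 for Cbfb, and 3.18 in KO for Eomes. The Runx sum was 31.6 and 92.4 CPM per kb. Runx1 shares were 50.9% and 14.3%, Runx3 shares 36.8% and 47.7%, and the WT share of Runx2 12.3%. Cbfb over the Runx sum was 1.72 and 0.718, and Tbx21 over Eomes in KO 9.01. Depth does not limit the 6 factors, each with at least 59 reads in every sample.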

Other observations

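The 3 nearest genes of the table on each side of the 6 factors were looked at after the values of the factors had been seen. Of these 36 neighbors, 8 (22.2%) were called, 2 higher and 6 lower, close to the 24.4% of all genes tested. Among the neighbors of the factors that were higher in KO samples, 2 were called higher (Tbkbp1 and Clic4) and 3 lower: Ncmap by Runx3 (log2FC -3.69), Itga9 by Eomes (-1.78) and Scrn2 by Tbx21 (-0.67). Tbkbp1, which encodes a TBK1-binding protein, is the nearest gene on 1 side of Tbx21, with a gap of 20.8 kb, and rose from 1.35 ± 0.24 to 14.9 ± 1.16 CPM (log2FC 3.45, SE 0.19, adjusted p = 2.4e-05 by edgeR, n = 3 per genotype). It was also among the 3 closest profiles to Tbx21, while Osbpl7 on the other side of Tbx21, with a gap of 29.2 kb, was not called (log2FC -0.19). Clic4, which encodes an intracellular chloride channel protein, has a gap of 36.0 kb to Runx3 and rose from 39.3 ± 8.73 to 120 ± 3.65 CPM (log2FC 1.62, SE 0.15, adjusted p = 0.00019 by edgeR). Golga4, with a gap of 20.1 kb to Eomes, was not called (log2FC 0.02), and neither were the 6 neighbors of Runx2.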
